A study of Mus musculus with 11 samples.

Results

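The genes described are 34 genes of fatty acid uptake and fatty acid oxidation, taken as a list of named genes, with no measured value in the rule; the list was drawn up with earlier results of these data known. A gene was counted as measured where the array held a probe set (a group of probes read as a single value) annotated with that gene symbol alone. This held for 32 of the 34 genes, among 12393 genes with such a probe set on the array. Acsl1 was not analysed here, and the probe set for Cpt1b is shared with Gm44502 and Chkb, so Cpt1b was not counted. Acot2 was dim and was not tested, with signals between 9.3 and 61.3 in ATLO adventitia, between 55.5 and 88.5 in outside-lesion adventitia and between 62.3 and 91.4 in wild-type adventitia. The other 31 genes were tested and are the members described from here on.

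As background, a long-chain fatty acid enters the cell with the help of transport proteins and is activated to an acyl-CoA by an acyl-CoA synthetase. The carnitine shuttle carries it into the mitochondrion, where acyl-CoA dehydrogenases, hydratases, hydroxyacyl-CoA dehydrogenases and thiolases remove acetyl-CoA units in repeated cycles, and the electron transfer flavoprotein passes electrons from the dehydrogenases to the respiratory chain. Peroxisomes shorten very long and branched chains by a parallel route. The pathway is known to be very active in brown adipocytes, heart and liver, and the fat around the aorta, next to the adventitia, can hold both white and brown adipocytes.

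The samples were adventitia, the outermost layer of the artery, made of connective tissue, cut by laser microdissection from frozen sections of abdominal aorta. The mice were male, 78 weeks old and fed normal chow. In 4 arrays the mice were Apoe-deficient (B6.129P2-Apoe<tm1Unc>/J) and the adventitia lay within the atherosclerotic lesion area and held artery tertiary lymphoid organs (ATLO, lymphocyte aggregates next to diseased arteries). Another 4 arrays came from mice of the same strain and from adventitia outside the lesion area (outside-lesion), which the design text instead calls mice without lesions. The last 3 arrays came from wild-type C57BL mice. No drug or other treatment is named for any group. Each Apoe-deficient sample pooled 200 sections of 10 micrometres, from an aorta removed together with nearby lymph nodes and fat, and its RNA was amplified by in vitro transcription for 68 h. Wild-type RNA was extracted with another kit and amplified for 24 h, so genotype and preparation cannot be told apart in any comparison with wild type. Wild-type titles carry the letters PNS, which no label explains. Whether the arrays of a group stand for different animals is in no label, and p-values therefore measure only how these samples spread, and that spread may be technical.

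All 11 arrays had been scaled by the authors to a trimmed mean signal near 500, and Apoe matched the genotype labels, with signals between 86.9 and 150.2 in ATLO, between 45.9 and 179.7 outside the lesion and between 11969 and 13164 in wild type. The ratio of the 3' to the 5' signal of the actin control probe sets, which rises as RNA is degraded or amplification shortens it, was 4.61 ± 2.71 (SD, n = 4) in ATLO, 8.71 ± 2.83 (SD, n = 4) outside the lesion and 4.98 ± 0.683 (SD, n = 3) in wild type. In exact permutation tests (two-sided, on the log2 ratio, adjusted over 3 pairs of groups) p was 0.171 between the groups of Apoe-deficient arrays, 0.657 between ATLO and wild type and 0.171 between outside-lesion and wild type. The smallest unadjusted p that these designs allow is 0.0286. Outside-lesion replicate 2 stood apart from the other 3 arrays of its group: it was the lowest in 25 of the 31 members and in 5 of 9 brown adipocyte markers. Changes that moved by over 1.5 times without it are given with and without it. Signals are in arbitrary units, log2 changes are differences of mean log2 signals given ± the standard error, and adjusted p-values are those of limma, adjusted by Benjamini-Hochberg over 14988 probe sets, with a call at 0.05.

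Fatty acid oxidation genes were lower in ATLO adventitia than in outside-lesion adventitia at nearly every step of the pathway. Of the 31 members, 28 fell, 1 rose (Cpt1a, the carnitine palmitoyltransferase of the outer mitochondrial membrane) and 2 did not pass the test (Acsl5 and Acaa1a). Among all 9055 genes tested, 14.9% were called lower and 19.8% were called higher in the same comparison. The median log2 change of the members was -1.97, with a range from -4.23 to 0.60, beside a median of 0.11 over all genes. In the 28 members that fell, the arrays of the groups did not overlap, as was so for 14.1% of all genes in that direction. The same 28 members were called lower in each of 11 fits that left out 1 array, outside-lesion replicate 2 included. In these bulk samples, fewer cells of a type and less RNA per cell cannot be told apart.

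**Figure D1:**
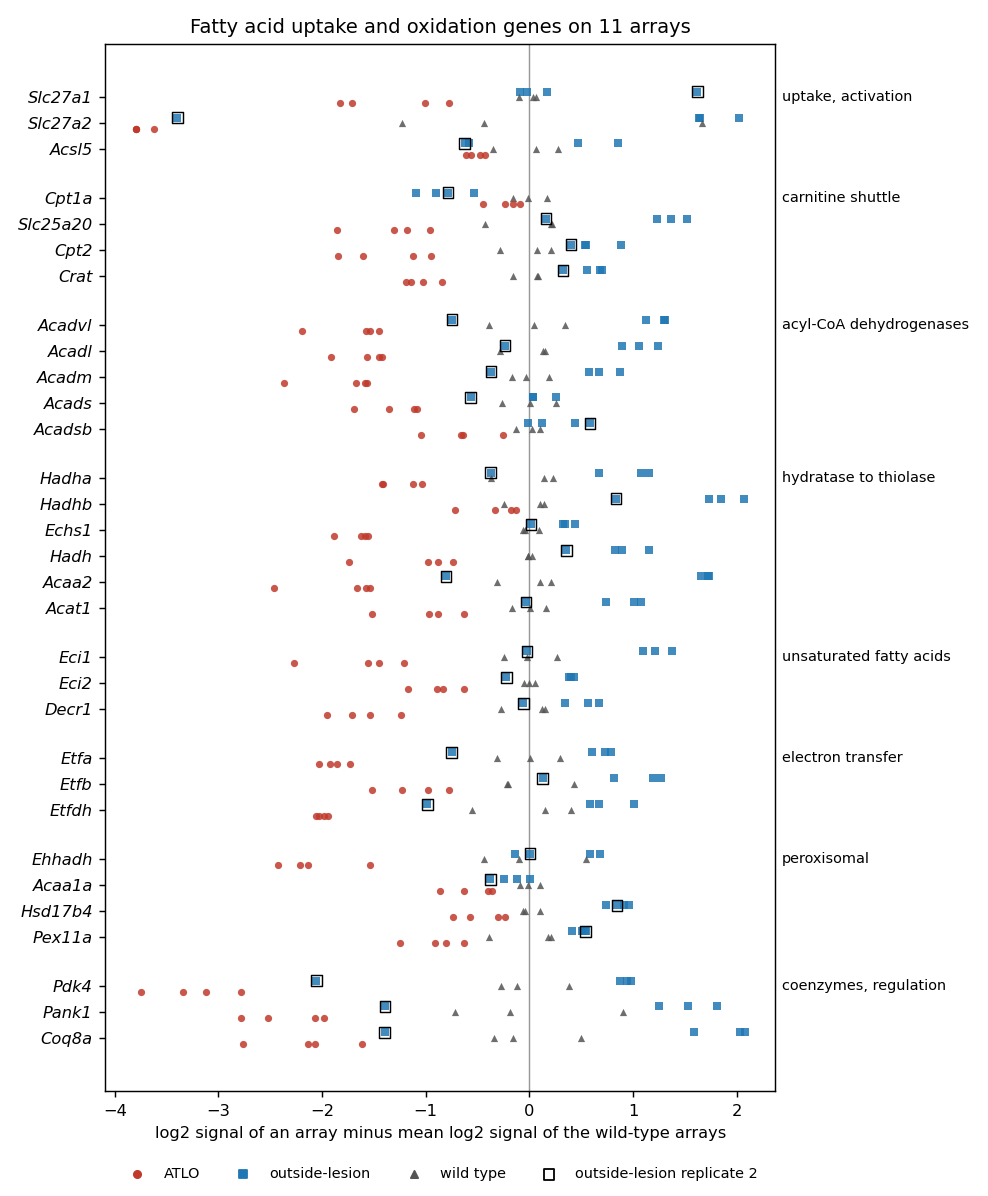
Log2 signal of each of the 31 tested members on each of the 11 arrays, minus the mean log2 signal of the 3 wild-type arrays of that gene (x axis), for ATLO (circles), outside-lesion (squares) and wild-type (triangles) arrays, with signals under 35.1 set to 35.1. ATLO arrays lie left of all outside-lesion arrays in 28 members, and outside-lesion replicate 2 (boxed squares) is the lowest array of its group in 25.

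Uptake and activation were measured by 3 members. Slc27a1, a fatty acid transport protein of the plasma membrane that also activates fatty acids, had signals of 490.4, 236, 256 and 417 in ATLO, 825, 2574.5, 785 and 943 outside the lesion and 780.0, 874.5 and 859 in wild type. All ATLO arrays lay below all outside-lesion arrays, outside-lesion replicate 2 stood highest, and Slc27a1 fell in ATLO against outside-lesion (log2 change -1.75 ± 0.34, adjusted p = 0.00168). Slc27a2, a very long-chain acyl-CoA synthetase and transport protein, had signals of 6.2, 7, 27.8 and 39.7 in ATLO and 1984, 46.3, 1529 and 1516 outside the lesion. It fell in ATLO (log2 change -4.23 ± 0.97, adjusted p = 0.00476), but 3 of the 4 ATLO arrays were under the floor of 35.1, so the size of this change depends on the floor, and replicate 2 of the outside-lesion group was almost as low as the ATLO arrays. Without that replicate the change was larger (log2 change -5.51 ± 0.49, adjusted p = 8.38e-06). With the actin ratio as a covariate the Slc27a2 change was -3.47 on the log2 scale and no longer passed the test (adjusted p = 0.0836). Acsl5, an acyl-CoA synthetase of mitochondria and endoplasmic reticulum, had signals of 1467, 1617, 1421 and 1557 in ATLO and 1453.5, 1408, 3919.9 and 3008 outside the lesion. Its groups overlapped, with outside-lesion replicates 1 and 2 at the ATLO level and replicates 3 and 4 above it, and it missed the threshold (log2 change -0.55 ± 0.29, adjusted p = 0.165).

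In the carnitine shuttle, 3 of 4 members fell and 1 rose. Slc25a20, the carnitine-acylcarnitine translocase of the inner membrane, had signals of 1848, 995, 1584 and 1456 in ATLO, 8462, 4018.5, 10315 and 9284 outside the lesion and 2669, 4159.9 and 4172 in wild type. It was 5.26-fold lower in ATLO than outside the lesion (log2 change -2.40 ± 0.29, adjusted p = 5.29e-05), with no overlap between the groups. Cpt2, the inner-membrane carnitine palmitoyltransferase, had signals of 1017.5, 618, 729 and 1149 in ATLO and 3238, 2928, 4099.5 and 3219 outside the lesion. All outside-lesion arrays lay above all ATLO arrays, and Cpt2 fell in ATLO (log2 change -1.97 ± 0.20, adjusted p = 2.23e-05). Crat, which transfers short acyl groups to carnitine, lay between 456 and 581 in ATLO and between 1306 and 1698 outside the lesion and fell as well (log2 change -1.62 ± 0.14, adjusted p = 1.15e-05). These are the brightest probe sets. The other probe set of Cpt2, 1447820_x_at, missed the threshold (log2 change -0.76 ± 0.31, adjusted p = 0.0831). So did that of Crat, 1448544_at (log2 change -0.28 ± 0.47, adjusted p = 0.682).

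Cpt1a, which makes the acylcarnitine that enters the shuttle, departed from the other members. Its brightest probe set, 1460409_at, had signals of 1021.5, 978, 929 and 797 in ATLO, 752, 631.5, 509.6 and 584 outside the lesion and 1080.4, 979 and 1224 in wild type. Every ATLO array lay above every outside-lesion array, and Cpt1a rose in ATLO against outside-lesion (log2 change 0.60 ± 0.15, adjusted p = 0.00884). That call was lost with equal array medians (adjusted p = 0.0568) and with the actin ratio as a covariate (adjusted p = 0.06). A second probe set, 1434866_x_at, whose suffix marks probes that can also read related sequences, was higher too (log2 change 0.86 ± 0.30, adjusted p = 0.0394). A further probe set of that kind, 1438156_x_at, missed the threshold (log2 change 0.36 ± 0.32, adjusted p = 0.425).

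The acyl-CoA dehydrogenases, which take the first electrons in each cycle of oxidation, fell in 5 of 5 members, with a median log2 change of -2.24. Acadvl, which acts on very long chains, had signals of 1868.5, 1122, 1719 and 1767 in ATLO, 11139, 3051, 12557 and 12707 outside the lesion and 3908, 5280.0 and 6497 in wild type. Outside-lesion replicate 2 lay below the wild-type arrays and the other 3 outside-lesion arrays lay above them, while all ATLO arrays were lower still (log2 change -2.43 ± 0.38, adjusted p = 3.51e-04). Acadl, for long chains, had signals of 2410.1, 1894, 2618 and 2661 in ATLO and 13309.7, 6074, 16907 and 14821 outside the lesion. Acadm, for medium chains, had signals of 3544, 2069, 3344 and 3602 in ATLO and 16986, 8239, 19577 and 15874 outside the lesion. Neither gene overlapped between the groups, and Acadl was 5.02-fold lower (log2 change -2.33 ± 0.27, adjusted p = 4.63e-05) and Acadm 4.71-fold lower (log2 change -2.24 ± 0.26, adjusted p = 4.69e-05) in ATLO. The changes of Acads, for short chains (log2 change -1.25 ± 0.20, adjusted p = 4.14e-04), and of Acadsb, for short branched chains (log2 change -0.93 ± 0.18, adjusted p = 0.00156), were smaller. Acadsb was read only by a probe set that can detect related sequences.

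The enzymes from hydratase to thiolase fell in 6 of 6 members, with a median log2 change of -1.92. Hadha and Hadhb encode the alpha and beta subunits of the mitochondrial trifunctional protein, which handles long chains. Hadha had signals of 1187, 906, 913 and 1115 in ATLO and 3860.4, 1874, 5120.0 and 5403 outside the lesion, without overlap (log2 change -1.88 ± 0.28, adjusted p = 2.43e-04). Hadhb had signals of 6119.7, 4209, 5474 and 6319.7 in ATLO and 29042, 12322, 22885 and 24823 outside the lesion on its brightest probe set, also without overlap (log2 change -1.96 ± 0.25, adjusted p = 7.43e-05). A second probe set of Hadhb, 1426522_at, also fell (log2 change -2.56 ± 0.28, adjusted p = 2.98e-05). Echs1, the short-chain enoyl-CoA hydratase, had signals of 784, 763, 636 and 801.5 in ATLO and 2944, 2381, 3199 and 2976 outside the lesion. Its spread within each group was small beside the difference (log2 change -1.94 ± 0.14, adjusted p = 4.10e-06).

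Acaa2, the thiolase of medium and long chains, had the largest fall of this step. Its signals were 1309, 755, 1395 and 1430.1 in ATLO, 13819.5, 2379, 13698 and 13063.5 outside the lesion and 3339.5, 4465 and 4809 in wild type. The groups did not overlap (log2 change -2.89 ± 0.46, adjusted p = 4.07e-04), although outside-lesion replicate 2 was nearer to the ATLO arrays than to the rest of its group. Without that replicate the Acaa2 change was -3.51 on the log2 scale (adjusted p = 1.72e-06). Hadh, the hydroxyacyl-CoA dehydrogenase of shorter chains, lay between 5438 and 10917.5 in ATLO and between 23279 and 40450.0 outside the lesion and fell (log2 change -1.89 ± 0.24, adjusted p = 7.06e-05). Acat1, the thiolase of acetoacetyl-CoA, lay between 1423 and 2633 in ATLO and between 3991 and 8596 outside the lesion and fell (log2 change -1.70 ± 0.24, adjusted p = 1.77e-04).

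The enzymes that move or reduce double bonds of unsaturated fatty acids fell in 3 of 3 members. Eci1, a mitochondrial enoyl-CoA isomerase, had signals of 1107, 629.8, 1032 and 1310.4 in ATLO, 6476, 2989.8, 7857.5 and 7029 outside the lesion and 2554, 2991 and 3659 in wild type. It fell 5.8-fold in ATLO against outside-lesion (log2 change -2.54 ± 0.29, adjusted p = 4.26e-05). Decr1, the mitochondrial dienoyl-CoA reductase, lay between 1159.6 and 1903 in ATLO and between 4319 and 7185 outside the lesion and fell (log2 change -1.99 ± 0.20, adjusted p = 1.95e-05). Eci2, an isomerase found in both mitochondria and peroxisomes, lay between 812 and 1184 in ATLO and between 1566.5 and 2462 outside the lesion, with a smaller fall (log2 change -1.13 ± 0.17, adjusted p = 2.32e-04). No array of ATLO reached an outside-lesion array in any of these 3 genes.

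The electron transfer flavoprotein, made of the subunits Etfa and Etfb, and its dehydrogenase Etfdh, which hands the electrons to ubiquinone, fell in 3 of 3 members. Etfa had signals of 1557, 1446, 1627 and 1775 in ATLO and 8960.5, 3509.5, 10187 and 9795 outside the lesion and fell (log2 change -2.23 ± 0.29, adjusted p = 8.23e-05). Etfb had signals of 4678, 2796.5, 3412 and 4048 in ATLO and 19299, 8736, 14099.7 and 18264 outside the lesion and fell (log2 change -1.98 ± 0.26, adjusted p = 9.71e-05). Etfdh had signals of 542, 510.4, 499 and 528 in ATLO, 3127, 1053, 4185 and 3328 outside the lesion and 1421, 2314 and 2755 in wild type and fell as well (log2 change -2.32 ± 0.34, adjusted p = 2.24e-04). In each of the 3 genes, replicate 2 was the lowest outside-lesion array and still lay above all ATLO arrays. Over the mitochondrial steps together, from the carnitine shuttle to the flavoprotein, 20 of 21 members fell and 1 rose, with a median log2 change of -1.97.

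The peroxisomal members fell in 3 of 4 cases, with a median log2 change of -1.36; the difference between peroxisomal and mitochondrial members was not tested. Ehhadh, the bifunctional hydratase and dehydrogenase of the peroxisome, had signals of 272, 147, 169.7 and 179 in ATLO, 717, 792, 1181 and 1261 outside the lesion and 734, 580.1 and 1148 in wild type. Its ATLO arrays lay below all other arrays, and in this gene outside-lesion replicate 2 was within the range of its group (log2 change -2.36 ± 0.26, adjusted p = 3.40e-05). Hsd17b4, the bifunctional enzyme for branched and very long chains, had signals of 1802, 1332, 1497.5 and 1895 in ATLO and 3706, 4003, 4340.2 and 4203.5 outside the lesion and fell (log2 change -1.33 ± 0.14, adjusted p = 2.64e-05). Pex11a, a membrane protein of peroxisome division, lay between 442 and 675.5 in ATLO and between 1391 and 1527 outside the lesion and fell (log2 change -1.40 ± 0.17, adjusted p = 5.69e-05). Acaa1a, a peroxisomal thiolase, had signals of 402, 472, 570.1 and 554 in ATLO and 617.5, 564, 738 and 672 outside the lesion on its brightest probe set, 1456737_x_at. These overlapped and missed the threshold (log2 change -0.38 ± 0.15, adjusted p = 0.0731), while its other probe set, 1456011_x_at, fell (log2 change -1.17 ± 0.31, adjusted p = 0.0115). Acaa1a has a close paralog, Acaa1b, and both probe sets carry the suffix of probes that can read related sequences, so its values are uncertain.

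**Figure D2:**
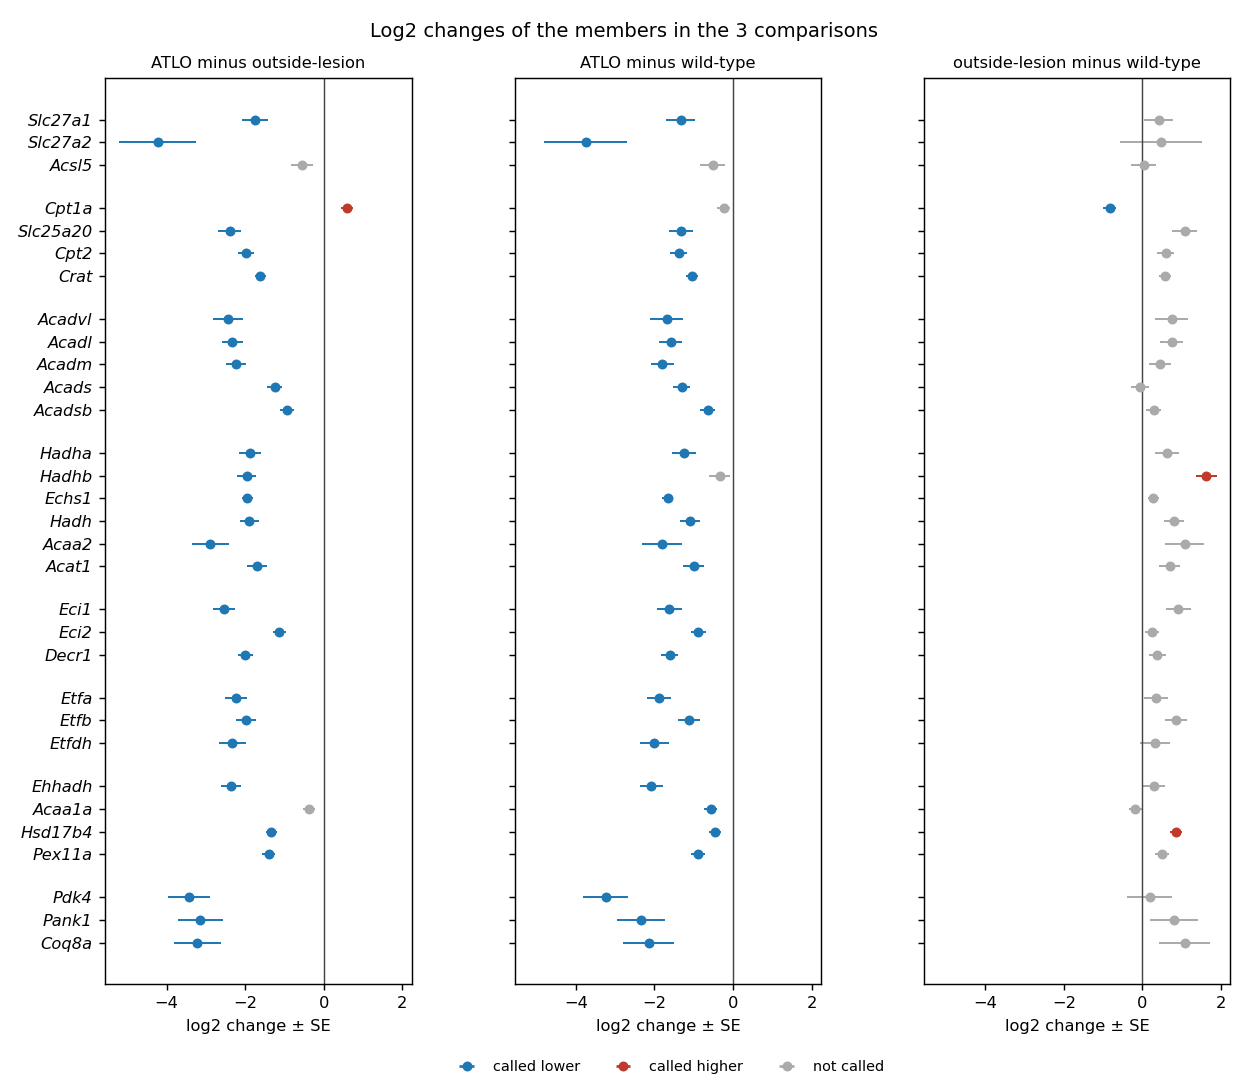
Log2 change ± standard error of each member (x axis) in ATLO minus outside-lesion, ATLO minus wild-type and outside-lesion minus wild-type, in order of the steps of the pathway. Members called lower are blue (28, 28 and 1), members called higher are red (1, 0 and 2) and members that did not pass the test are grey (2, 3 and 28).

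The members of coenzyme supply and regulation fell in 3 of 3 tested cases, with a median log2 change of -3.22. Pdk4, a kinase that switches off pyruvate dehydrogenase and so favours fatty acids as fuel, had signals of 408, 307.5, 475 and 601 in ATLO, 8130.4, 992, 7899.8 and 7561 outside the lesion and 3421, 3807 and 5387 in wild type. It was 10.8-fold lower in ATLO (log2 change -3.43 ± 0.54, adjusted p = 3.32e-04), and its outside-lesion replicate 2 lay below the wild-type arrays. Without that replicate Pdk4 was 18.1-fold lower (log2 change -4.18 ± 0.22, adjusted p = 5.01e-07). Pank1, a pantothenate kinase at the start of coenzyme A synthesis, had signals of 214, 258, 352 and 375 in ATLO and 3521, 564, 5178 and 4261 outside the lesion and fell (log2 change -3.14 ± 0.57, adjusted p = 9.74e-04). Coq8a, an atypical kinase of coenzyme Q synthesis, had signals of 470.5, 289, 448 and 644 in ATLO and 5924, 748, 8323 and 8024 outside the lesion and fell (log2 change -3.22 ± 0.60, adjusted p = 0.00118). In Pank1 and Coq8a, outside-lesion replicate 2 lay just above the ATLO arrays, and the other 3 outside-lesion arrays stood far above both. Without replicate 2 the log2 change was -3.87 for Pank1 (adjusted p = 5.94e-06) and -4.04 for Coq8a (adjusted p = 1.89e-06). A second probe set of Coq8a, 1417067_s_at, fell less (log2 change -1.52 ± 0.45, adjusted p = 0.0197).

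**Figure D3:**
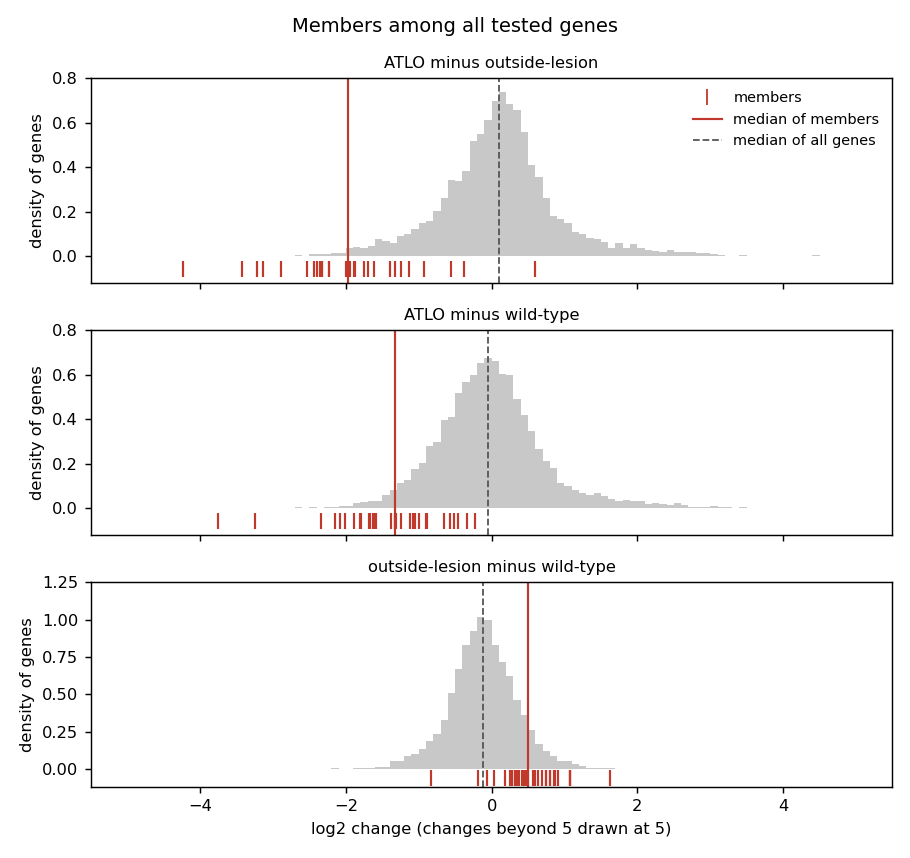
Distribution of the log2 changes of all 9055 tested genes (grey, density on the y axis) in the 3 comparisons, with the 31 members as red ticks and their median as a red line. The members' medians are -1.97, -1.33 and 0.50 and those of all genes, drawn dashed, are 0.11, -0.05 and -0.12.

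Against wild type, the members were again lower in ATLO adventitia. Of the 31 members, 28 fell, 0 rose (0 also at an unadjusted p under 0.05 by limma, the only tool run) and 3 did not pass the test (Acsl5, Cpt1a and Hadhb). Of all genes tested, 14.0% were called lower and 13.4% were called higher. The median log2 change was -1.33 over the members and -0.05 over all genes, and the groups did not overlap in 29 members, all lower in ATLO, as in 21.8% of all genes. This comparison shares the ATLO arrays with the one above, and its counts depended more on single arrays: 19 members were called lower without wild-type replicate 3, 22 without wild-type replicate 2 and 23 without ATLO replicate 2. Wild-type replicate 3 had the highest signal of its group in 22 members and wild-type replicate 1 the lowest in 24.

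By step, 19 of 21 mitochondrial members fell in ATLO against wild type (median log2 change -1.32), as did 4 of 4 peroxisomal members (median log2 change -0.73). Pdk4 was again the most changed of the genes read above the floor (log2 change -3.25 ± 0.58, adjusted p = 0.00161), followed by Pank1 (log2 change -2.34 ± 0.62, adjusted p = 0.0136), Coq8a (log2 change -2.14 ± 0.65, adjusted p = 0.0269) and Ehhadh (log2 change -2.08 ± 0.28, adjusted p = 3.04e-04). The dehydrogenases fell in 5 of 5 members, from Acadm (log2 change -1.80 ± 0.28, adjusted p = 7.42e-04) to Acadsb (log2 change -0.65 ± 0.20, adjusted p = 0.0265). Etfdh (4.01-fold lower, adjusted p = 0.00202), Etfa (log2 change -1.89 ± 0.31, adjusted p = 9.34e-04), Echs1 (log2 change -1.66 ± 0.15, adjusted p = 3.12e-05) and Decr1 (log2 change -1.61 ± 0.21, adjusted p = 2.66e-04) were called with adjusted p-values at or under 0.01. Cpt2 (log2 change -1.38 ± 0.22, adjusted p = 7.43e-04), Slc25a20 (log2 change -1.32 ± 0.31, adjusted p = 0.00729) and Crat (log2 change -1.05 ± 0.15, adjusted p = 4.21e-04) fell in the shuttle. Slc27a2 fell as well (log2 change -3.75 ± 1.05, adjusted p = 0.0185), with a log2 change of -4.38 without wild-type replicate 1 and of -2.92, no longer called, without wild-type replicate 3.

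Of the 28 calls of ATLO against wild type, 10 were lost in at least 1 fit that left out 1 array, all keeping their sign. Coq8a was lost without ATLO replicate 2 (adjusted p = 0.0693) and without wild-type replicate 1 (0.0598), 2 (0.0888) or 3 (0.0518). It was also lost with no filter (adjusted p = 0.0973) and with the mean of its probe sets (adjusted p = 0.0775), and its other probe set, 1417067_s_at, was not called (log2 change -0.57 ± 0.48, adjusted p = 0.407). Of the peroxisomal members, Ehhadh and Pex11a kept their calls in every such fit, and Hsd17b4 (log2 change -0.46 ± 0.15, adjusted p = 0.0373) and Acaa1a (log2 change -0.57 ± 0.16, adjusted p = 0.0226) did not. Hsd17b4 was lost without ATLO replicate 2 or 3, outside-lesion replicate 4 or any 1 wild-type array, with adjusted p-values from 0.0508 to 0.123. It was lost, too, with equal array medians (adjusted p = 0.0736), only the groups compared (0.0588), no intensity trend (0.0583) and the actin covariate (0.0515). The other probe set of Hsd17b4, 1417369_at, was called lower with all arrays (log2 change -1.12 ± 0.23, adjusted p = 0.00347). Acaa1a was lost without ATLO replicate 1 (adjusted p = 0.0561) and wild-type replicate 2 (0.0588) or 3 (0.0823), and its probe set 1456011_x_at was not called (log2 change -0.77 ± 0.34, adjusted p = 0.105).

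Among the other members, Slc27a1 and Acaa2 were each lost without ATLO replicate 2, wild-type replicate 2 or wild-type replicate 3, with adjusted p-values from 0.0506 to 0.055 for Slc27a1 and from 0.0502 to 0.0628 for Acaa2. Acadsb was lost without ATLO replicate 2 or 4 or wild-type replicate 1 or 2, with adjusted p-values from 0.0521 to 0.0889. Without wild-type replicate 3, Pank1 (adjusted p = 0.0707), Acat1 (0.0553) and Etfb (0.0567) were lost with Slc27a2. The other 18 members called lower were called in all 11 such fits. With all arrays, the other probe sets of Acaa2 (adjusted p = 0.0199 and 0.00121), Acat1 (0.00149 and 0.00205) and Pank1 (0.0302) were called lower as well.

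Different probe sets of a gene disagreed in some members. In ATLO against wild type, 9 of 19 further probe sets of 15 members differed in call or sign from the brightest one, with 2 of opposite sign. Those of Cpt2 (1447820_x_at, adjusted p = 0.466), Crat (1448544_at, 0.117) and Acadl (1448988_at, 0.0725) were not called. For Hadh, 1436756_x_at was not called (adjusted p = 0.743), while 1460184_at was called lower (adjusted p = 2.95e-04). Hadhb missed the threshold on 1437172_x_at (log2 change -0.34 ± 0.27, adjusted p = 0.37) but fell on 1426522_at (log2 change -2.03 ± 0.30, adjusted p = 4.73e-04), where the signals were 2878, 1800.2, 1747 and 2087 in ATLO and 7268, 9294.5 and 9215.5 in wild type. Cpt1a missed the threshold on 1460409_at (log2 change -0.23 ± 0.16, adjusted p = 0.314) but was higher on 1434866_x_at (log2 change 1.52 ± 0.32, adjusted p = 0.00413). The signals of that second probe set were 535, 1314, 542 and 762 in ATLO, 386, 525, 250.5 and 519.9 outside the lesion and 268, 219 and 285 in wild type. Neither direction for Cpt1a against wild type therefore holds over all its probe sets. In ATLO against outside-lesion, 4 of 19 further probe sets differed in call and 0 in sign.

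**Figure D4:**
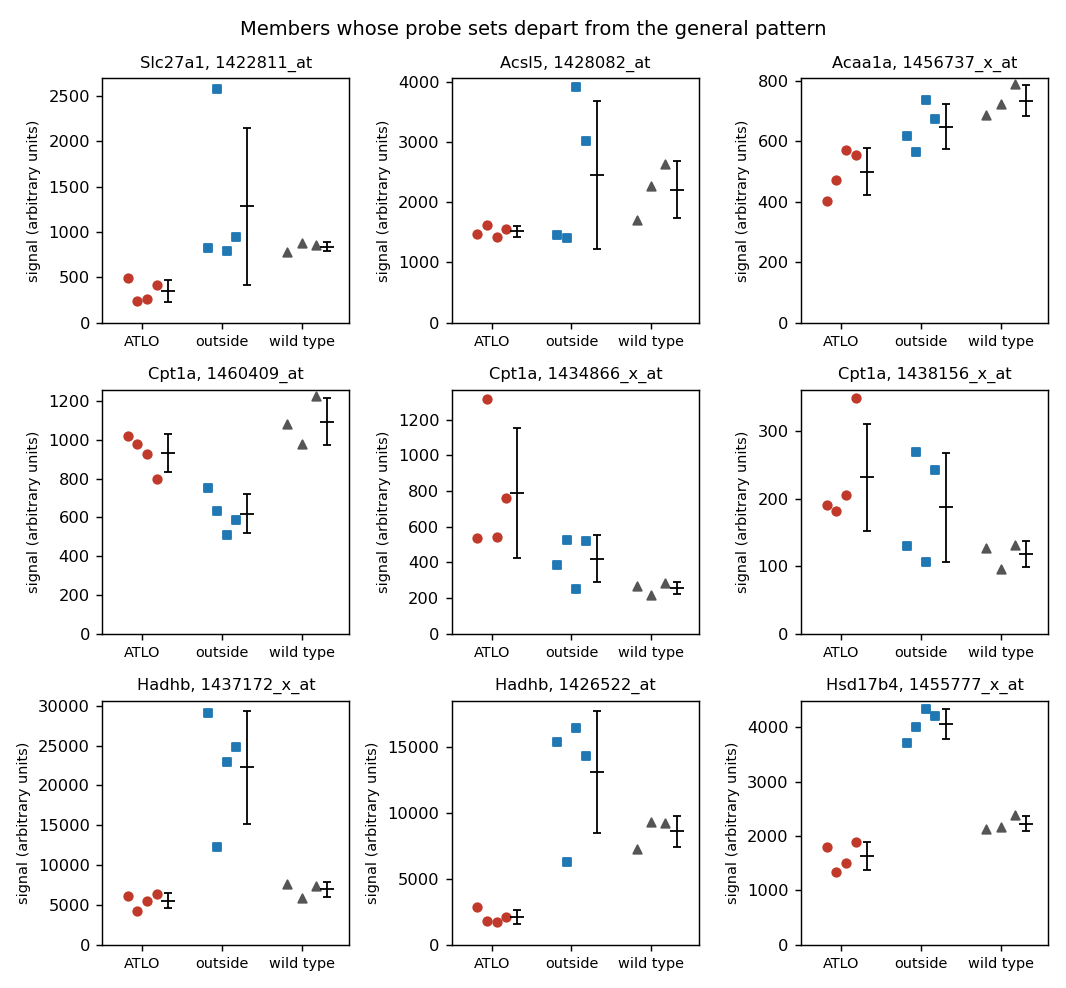
Signals in arbitrary units (y axis, linear from 0) of 9 probe sets of 6 members on ATLO (circles), outside-lesion (squares) and wild-type (triangles) arrays, with the mean ± SD of each group beside the points. The panels were chosen after the values were seen, and the wild-type arrays of Cpt1a lie among or above the ATLO arrays on 1460409_at and below them on 1434866_x_at.

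Outside-lesion adventitia had somewhat more signal of these genes than wild-type adventitia, but few members passed the test. Of the 31 members, 2 rose (Hadhb and Hsd17b4), 1 fell (Cpt1a) and 28 did not pass. Over all genes, 1.40% were called higher and 1.68% lower, and 11 members were higher and 1 lower at an unadjusted p under 0.05. The median log2 change was 0.50 over the members and -0.12 over all genes, and 28 members were higher in sign. In 6 members (Cpt2, Crat, Hadhb, Hadh, Hsd17b4 and Pex11a) all outside-lesion arrays lay above all wild-type arrays on the brightest probe set, as in 7.50% of all genes. The brightest probe sets of Hadhb, Hadh and Hsd17b4 carry the suffix of probes that can read related sequences. On the other probe sets of these members the groups overlapped, except on 1436756_x_at of Hadh. The other probe set of Crat, 1448544_at, had the opposite sign (log2 change -0.83 ± 0.50, adjusted p = 0.338). Mean signals ran in the order ATLO, wild type, outside-lesion from lowest to highest in 28 members, but the upper pair of that order did not pass the test in 26 of them.

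The members called in this comparison were not called on all of their probe sets. Hadhb rose on 1437172_x_at (log2 change 1.62 ± 0.27, adjusted p = 0.0149), with outside-lesion signals of 29042, 12322, 22885 and 24823 and wild-type signals of 7593, 5834 and 7429.7. On 1426522_at it missed the threshold (log2 change 0.52 ± 0.30, adjusted p = 0.308). Hsd17b4 rose on 1455777_x_at (log2 change 0.87 ± 0.15, adjusted p = 0.0165), with wild-type signals of 2139.5, 2160.3 and 2387, but not on 1417369_at (log2 change 0.22 ± 0.23, adjusted p = 0.593). Cpt1a fell on 1460409_at (log2 change -0.83 ± 0.16, adjusted p = 0.0254). That call was lost with the replicate block (adjusted p = 0.0587), equal array medians (0.0701), only the groups compared (0.0509) and the actin covariate (0.0666), and without outside-lesion replicate 3 (0.0552) or 4 (0.061) or wild-type replicate 1 (0.0744). Cpt1a had the opposite sign on 1434866_x_at (log2 change 0.66 ± 0.32, adjusted p = 0.238). Hadh, read as not called on its brightest probe set (log2 change 0.81 ± 0.26, adjusted p = 0.0974), was higher on 1436756_x_at (log2 change 2.05 ± 0.42, adjusted p = 0.0274). The Hsd17b4 call was lost with the actin covariate (adjusted p = 0.0547) and without wild-type replicate 1 (0.0574). Without wild-type replicate 2 or without wild-type replicate 3, 0 members were called in either direction, with adjusted p-values from 0.0617 to 0.0659 for Hadhb, from 0.0617 to 0.0706 for Hsd17b4 and from 0.0681 to 0.0861 for Cpt1a.

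Outside-lesion replicate 2 set much of this comparison. Without it, 16 members were called higher and 1 lower, and the members' median log2 change was 0.75. Over all 14842 probe sets tested in that fit, 505 were called higher and 382 lower. The members added were Slc25a20, Crat, Acadvl, Acadl, Hadha, Hadh, Acaa2, Acat1, Eci1, Etfa, Etfb, Pdk4, Pank1 and Coq8a, with log2 changes from 0.65 (Crat) to 1.90 (Coq8a). In 25 of 31 members replicate 2 was the lowest outside-lesion array, in 28 it lay above every ATLO array, and in 15 it lay below every wild-type array. The median of the other 3 arrays was at least 2-fold that of replicate 2 in 17 members. That ratio was 33.0 for Slc27a2, 10.7 for Coq8a, 7.96 for Pdk4, 7.56 for Pank1, 5.76 for Acaa2 and 4.12 for Acadvl.

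**Figure D5:**
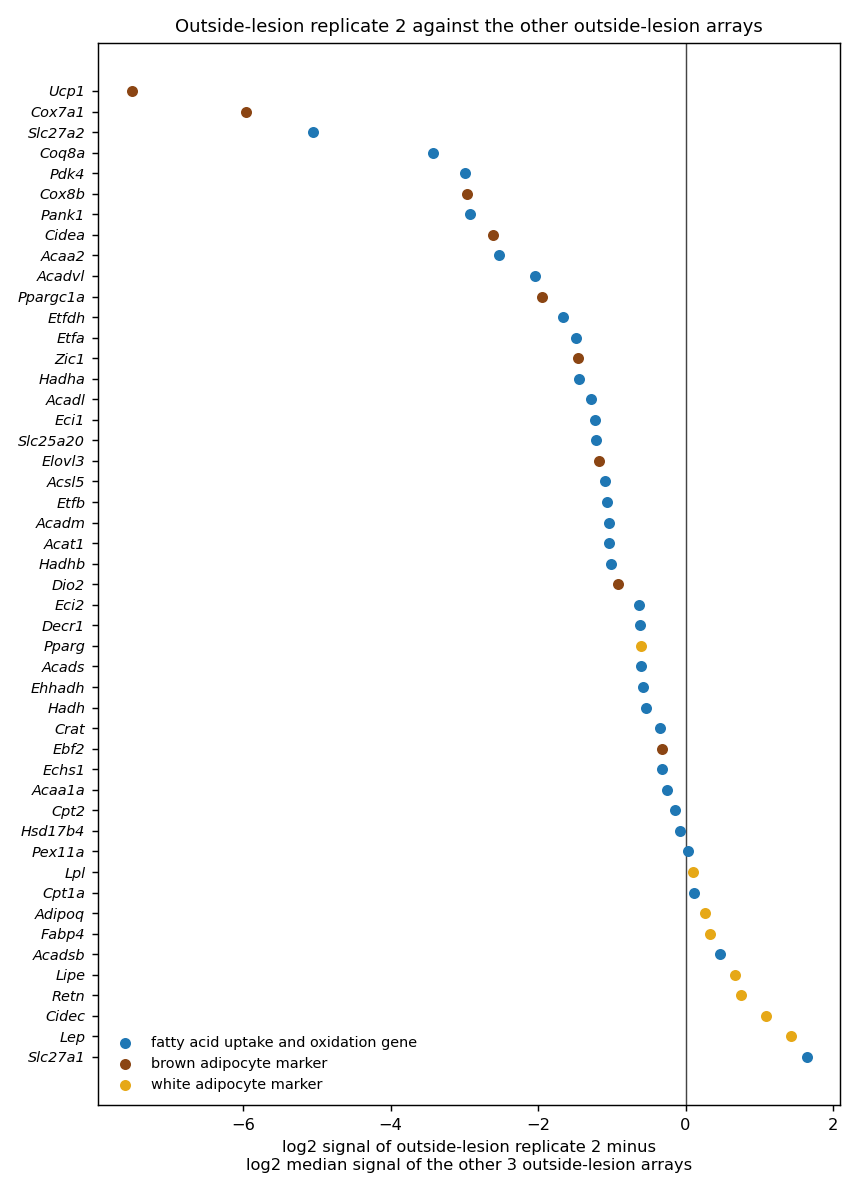
Log2 signal of outside-lesion replicate 2 minus the log2 median signal of the other 3 outside-lesion arrays (x axis) for the 31 members (blue), the 9 measured brown adipocyte markers (brown) and the 8 measured white adipocyte markers (yellow). The 9 brown adipocyte markers and most members lie left of 0, and 7 of the 8 white adipocyte markers lie right of 0.

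Markers of adipocytes moved with the members. Of the brown adipocyte markers, 7 of 8 tested fell in ATLO against outside-lesion and 0 rose, and their summed signal lay between 1880.8 and 5861.5 in ATLO. Outside the lesion the sum was 86627 in replicate 1, 7869.6 in replicate 2, 85093 in replicate 3 and 76231 in replicate 4, and in wild type it was 17262, 29229 and 47855. Ucp1, the uncoupling protein that defines brown adipocytes, had signals of 14.2, 4.3, 695 and 661 in ATLO, 26125, 143, 26624 and 20513 outside the lesion and 1573, 5513 and 20357 in wild type. Its log2 change in ATLO against outside-lesion was -5.45 (adjusted p = 0.0177), and -7.29 without outside-lesion replicate 2 (adjusted p = 3.20e-04). The Ucp1 call was lost in 4 of 11 fits that left out 1 array (adjusted p from 0.0536 to 0.0606). Cidea, a lipid droplet protein of brown adipocytes, had outside-lesion signals of 15072, 2589.6, 15942 and 15745, against between 360.1 and 947 in ATLO (log2 change -3.95 ± 0.50, adjusted p = 7.95e-05). The fall of Cidea was larger, -4.60 on the log2 scale (adjusted p = 1.66e-06), with outside-lesion replicate 2 left out. Of this list, Zic1 was at the floor on all ATLO arrays and near or under it outside the lesion (3, 11.7, 35.6 and 32.2). Outside-lesion replicate 2 was the lowest array of its group in the brown adipocyte sum and in Ucp1, Cidea, Cox8b, Cox7a1 and Ppargc1a, but not in Dio2, Elovl3, Ebf2 and Zic1, and the part of these cells in the members' changes was not tested.

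Of the white adipocyte markers, 7 of 8 tested fell in ATLO against outside-lesion and 0 rose, with a summed signal between 35676 and 99039 in ATLO, between 132665 and 218498 outside the lesion and between 85451 and 103944 in wild type. The Fabp4 call among these was lost in 3 of 11 fits that left out 1 array (adjusted p from 0.0526 to 0.0799). Adipoq, the adipocyte hormone adiponectin, had signals of 15968, 8152, 11942 and 14621 in ATLO, 39107, 35535, 29539 and 29506 outside the lesion and 21556, 19437 and 21753.5 in wild type (log2 change -1.43 ± 0.22, adjusted p = 2.88e-04). Replicate 2 of the outside-lesion group was not the lowest in Adipoq. Markers of skeletal and cardiac muscle, a tissue that also oxidises fatty acids, were dim, with 3 of 12 tested and 0 called by limma (0 also at an unadjusted p under 0.05, and 1 lower without ATLO replicate 3), and sums between 344 and 1646.5 over all arrays. Ckm, the muscle creatine kinase, lay between 15.7 and 206 in ATLO, between 19.7 and 137 outside the lesion and between 97.1 and 169 in wild type. Myh1 was at the floor on all ATLO arrays, Myh4, Myh6 and Tnni3 on all outside-lesion arrays and Myh4 on all wild-type arrays.

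Markers of other cells moved the opposite way. In ATLO against outside-lesion, 7 of 7 B cell, 6 of 6 T cell, 8 of 9 macrophage and 6 of 7 fibroblast markers rose and 0 fell. The call of Cd14, a macrophage marker, was lost in 6 of 11 fits that left out 1 array (adjusted p from 0.0574 to 0.111). That of Ms4a1, a B cell marker, was lost in 2 of them (adjusted p from 0.065 to 0.0708). Summed B cell marker signals lay between 10101 and 23837 in ATLO, between 899 and 2265.8 outside the lesion and between 798.7 and 7182.7 in wild type. T cell sums lay between 3232.7 and 6584.6 in ATLO, between 459 and 698.1 outside the lesion and between 536.9 and 1259.9 in wild type, with Cd4 at the floor on all arrays of the latter groups. Macrophage sums lay between 39865 and 65762 in ATLO, between 14278 and 25474 outside the lesion and between 17941 and 25954 in wild type. Cd79a of B cells (log2 change 3.11 ± 0.55, adjusted p = 7.76e-04), Cd3e of T cells (log2 change 2.25 ± 0.52, adjusted p = 0.00504), Mpeg1 of macrophages (log2 change 2.73 ± 0.14, adjusted p = 3.36e-07) and the collagen gene Col1a1 of fibroblasts (log2 change 1.23 ± 0.36, adjusted p = 0.0196) rose. The fibroblast count was 3 of 7 without ATLO replicate 1, without ATLO replicate 4 and without outside-lesion replicate 3, and Col1a1 was lost in these fits and without outside-lesion replicate 2 (adjusted p from 0.0507 to 0.0619). The calls of Col1a2 (adjusted p from 0.0582 to 0.139) and Pdgfrb (from 0.055 to 0.144) were each lost in 9 of 11 fits. Fibroblast sums, between 50916 and 95884 in ATLO and between 26657 and 70468 outside the lesion, overlapped between these groups and lay between 46759 and 52053 in wild type. ATLO adventitia was tissue that held lymphocyte aggregates, so more lymphocyte signal cannot be told apart from the choice of tissue. The part of these cells in the members' changes was not tested.

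Of the vessel's own cell types, 5 of 8 endothelial markers fell (3 without ATLO replicate 3) and 0 rose in ATLO against outside-lesion. Among the 11 fits that left out 1 array, the Cldn5 call was lost in 9 (adjusted p from 0.0507 to 0.133). The Cdh5 call was lost in 2 (adjusted p from 0.056 to 0.0583). Endothelial sums lay between 3128.8 and 4758.6 in ATLO, between 5290.3 and 11598 outside the lesion and between 5189.5 and 6388.9 in wild type. Of the smooth muscle markers, 1 of 6 fell (Myh11) and 0 rose, with sums between 10896 and 29665 in ATLO, between 18559 and 57445 outside the lesion and between 38490.3 and 42556 in wild type. The Myh11 call held only without ATLO replicate 3 or outside-lesion replicate 3 or 4 among the 11 fits that left out 1 array, with adjusted p-values from 0.0503 to 0.124 in the other 8. No endothelial or smooth muscle marker was at the floor on all arrays of a group. The part of these cells was not tested.

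Other genes of fatty acid handling were mostly lower too. Of 32 tested genes of a list of 40, 23 fell and 2 rose in ATLO against outside-lesion, with a median log2 change of -1.31. Fabp3, a fatty acid-binding protein of muscle and brown fat, had signals of 76.3, 45.1, 236 and 179 in ATLO, 7447.5, 102, 5829 and 3347 outside the lesion and 675, 1093 and 3463 in wild type. It fell in ATLO against outside-lesion (log2 change -4.16 ± 1.09, adjusted p = 0.0105), and its outside-lesion replicate 2 lay within the ATLO range. The Fabp3 change was -5.58 on the log2 scale without that replicate (adjusted p = 2.73e-05) and -3.52 without replicate 1 (adjusted p = 0.0356). Acacb, whose product malonyl-CoA inhibits carnitine palmitoyltransferase at the outer membrane, had signals of 477, 230.3, 427.5 and 324 in ATLO and 1527, 1761, 3362 and 2289 outside the lesion, without overlap (log2 change -2.60 ± 0.26, adjusted p = 2.17e-05). The genes that rose were Pdk3, a pyruvate dehydrogenase kinase (log2 change 1.91 ± 0.43, adjusted p = 0.0044), and Acsl4, an acyl-CoA synthetase with a preference for arachidonic acid (log2 change 0.69 ± 0.18, adjusted p = 0.0113). Pdk3 had signals of 232, 319.8, 122 and 160.5 in ATLO and 29.8, 71, 15.5 and 83.5 outside the lesion, whereas Pdk4 among the members fell. Of these outside-lesion signals 2 were under the floor of 35.1, so the size of the Pdk3 change depends on the floor. A second probe set of Acsl4, 1418911_s_at, missed the threshold (log2 change -0.18 ± 0.37, adjusted p = 0.753).

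Against wild type, the same list had 22 genes lower and 1 higher (Acsl4, lost without wild-type replicate 2 or 3) in ATLO, with a median log2 change of -0.89. In outside-lesion against wild type, 0 genes of it were lower and 2 were higher, Pnpla2, the lipase that starts the breakdown of stored fat (log2 change 1.04 ± 0.24, adjusted p = 0.0382), and Mgll, the lipase that ends it (log2 change 0.98 ± 0.25, adjusted p = 0.0482). Of the 11 fits that left out 1 array, Pnpla2 was lost in 8, all but those without ATLO replicate 1 or 2 or outside-lesion replicate 2 (adjusted p from 0.0511 to 0.127), and Mgll in 10, all but that without ATLO replicate 2 (adjusted p from 0.0521 to 0.15). At an unadjusted p under 0.05, 1 was lower and 6 were higher. Of 20 tested peroxisomal genes beyond the members, 17 fell and 0 rose in ATLO against outside-lesion (0 also at an unadjusted p under 0.05), with a median log2 change of -0.97. The largest falls were those of Acaa1b, a thiolase (log2 change -2.47 ± 0.29, adjusted p = 4.53e-05), and Eci3, an isomerase (log2 change -1.91 ± 0.22, adjusted p = 3.96e-05). Against wild type, 12 of these 20 were lower and 0 higher in ATLO, with a median log2 change of -0.75. In outside-lesion against wild type, Scp2, a sterol carrier with thiolase activity (log2 change 1.09 ± 0.20, adjusted p = 0.0207), and Cat, the peroxisomal catalase (log2 change 1.09 ± 0.20, adjusted p = 0.022), were the 2 higher genes and 0 were lower (2 at an unadjusted p under 0.05). Scp2 was lost without wild-type replicate 2 (0.0902) or 3 (0.0674), and Cat without any 1 wild-type array (adjusted p from 0.0617 to 0.0843).

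Genes listed as regulators of the pathway fell in part. Of 14 tested regulators, 8 fell and 0 rose in ATLO against outside-lesion (10 lower and 0 higher at an unadjusted p under 0.05), with a median log2 change of -0.85. Ppara, the nuclear receptor best known for inducing fatty acid oxidation, had signals of 20.6, 6.6, 32.9 and 14.7 in ATLO, 583, 124, 587 and 968 outside the lesion and 242, 236 and 129 in wild type. All ATLO arrays were under the floor of 35.1, so that Ppara was at least 12.8-fold lower than outside the lesion (adjusted p = 1.05e-04), and at least 19.4-fold without outside-lesion replicate 2. Ppargc1a, a coactivator of mitochondrial genes that also stands in the brown adipocyte list, had signals of 53.6, 47.1, 47 and 49.8 in ATLO and 741, 129, 497 and 273 outside the lesion and fell (log2 change -2.77 ± 0.50, adjusted p = 9.62e-04). Its ATLO arrays were close to the floor. Ppargc1b, its relative, had signals of 319.7, 284, 306 and 375 in ATLO and 1749.9, 562.5, 2264 and 1667 outside the lesion and fell (log2 change -2.12 ± 0.33, adjusted p = 2.92e-04).

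Pparg, the receptor of adipocyte differentiation and a white adipocyte marker here, lay between 301 and 816.5 in ATLO and between 1819.8 and 3192 outside the lesion and fell (log2 change -2.14 ± 0.28, adjusted p = 1.06e-04). Esrra, an estrogen-related receptor that acts with the coactivators, also fell (log2 change -0.85 ± 0.20, adjusted p = 0.006). Of the retinoid X receptors, the partners of the PPAR proteins, Rxrb fell (log2 change -0.78 ± 0.26, adjusted p = 0.0372), while Rxra (log2 change -0.59 ± 0.22, adjusted p = 0.0582) and Rxrg (log2 change -0.85 ± 0.32, adjusted p = 0.0549) did not pass the test. The Rxrb call was lost without ATLO replicate 1, 2 or 4 or outside-lesion replicate 1, 3 or 4, with adjusted p-values from 0.0616 to 0.109. Esrrg did not pass either (log2 change 0.12 ± 0.37, adjusted p = 0.833), and Ppard and Esrrb had no tested probe set. Against wild type, 4 regulators were lower in ATLO, among them Ppara (adjusted p = 0.00453), Pparg (log2 change -1.12 ± 0.31, adjusted p = 0.0165) and Ppargc1a (log2 change -2.63 ± 0.54, adjusted p = 0.00371). Without wild-type replicate 3 the Pparg call was lost (log2 change -0.90 ± 0.34, adjusted p = 0.0828) and the Ppargc1a change was -2.02 on the log2 scale (adjusted p = 0.0214). In outside-lesion against wild type, limma called 0 regulators, with 1 lower and 5 higher at an unadjusted p under 0.05, and 4 higher without outside-lesion replicate 2 and 1 higher without ATLO replicate 2.

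Since the members moved together, their promoters were searched for the sites of these receptors. RefSeq promoters (GRCm38.p6, 250 bases before to 50 after the start of a gene) were given for 28 of the 34 listed genes. The PPAR response element in its exact form, AGGTCANAGGTCA, was found in 0 members on either strand, and in 0.0481% of 27025 genes. The ERR response element, TNAAGGTCA, was found in 0 members and in 1.43% of genes. The hexamer AGGTCA, which is contained in both, was found in 6 members, 21.4% of those with a promoter, and in 18.1% of all genes, which is near the members' share. The 6 stretches are shown because they are the members' only matches, each 5' to 3' on the strand of its gene, with the match in capitals (TGACCT where it lies on the opposite strand):
Coq8a (chr1:180193486-180193518, minus strand): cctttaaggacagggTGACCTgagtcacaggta
Slc27a2 (chr2:126552789-126552824, plus strand): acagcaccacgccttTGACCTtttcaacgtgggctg
Acadm (chr3:153944872-153944893, minus strand): gTGACCTtcgggctccggtgac
Echs1 (chr7:140116484-140116519, minus strand): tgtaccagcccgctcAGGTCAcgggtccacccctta
Acadvl (chr11:70015495-70015530, minus strand): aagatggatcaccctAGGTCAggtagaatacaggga
Cpt1a (chr19:3323192-3323227, plus strand): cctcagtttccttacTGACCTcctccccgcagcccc

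The matches of Coq8a, Slc27a2, Acadm, Echs1, Acadvl and Cpt1a lay between 13 and 249 bases before the start. The 6 genes include members that fell in ATLO against outside-lesion as well as Cpt1a, which rose. A match of 6 letters is a description of the sequence and not a measured binding site, and no match says only that these letters were not in this window.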

How the data were processed

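Deposited values were linear signal intensities per probe set, which the authors made with GCOS 1.4 per the submitters' processing notes and had scaled to a trimmed mean (2% off each end) between 500.168 and 500.266 on every array. The sources used here do not name the summary method. Array medians lay between 151.5 and 191; signals have no count behind them, so the number of arrays limits the precision.

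Of 22690 rows, 64 controls were left out. The platform annotation gave 20380 of the other 22626 probe sets 1 symbol, 691 several and 1555 none. Signals were raised to a floor of 35.1 (20th percentile) and taken to log2, which understates changes near the floor. Testing was limited to the 14988 probe sets that exceeded the 40th percentile of the array on 3 arrays or more. The model had 1 mean for each group over all 11 arrays and was fitted by limma (version 3.58.1, R 4.3.3) with an intensity trend, with Benjamini-Hochberg adjustment and a threshold of 0.05. A gene was represented by its tested probe set with the highest mean (9055 genes). The fit was also run on simulated independent normal values. These hold no outlying array and no link between genes, and no result here rests on them.

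The members and lists were chosen with earlier results of these data known. All tested members are reported. Of each other pathway list the 2 largest called falls and rises in ATLO against outside-lesion, all measured PPAR, RXR, PGC-1 and ERR genes and fixed markers are named. Pnpla2, Mgll, Scp2, Cat, Myh11, Fabp4, Cd14, Ms4a1, Cldn5, Cdh5, Col1a2 and Pdgfrb were named after their values were seen. No label says that replicate numbers pair the arrays, so the main fit used no block, and a replicate block was tried as an alternative. The alternatives were other scalings, floors, filters, samples, weights and probe set choices, the actin ratio as a covariate and each array left out; leaving out probe sets with the suffix _x_at, and single arrays for genes other than members, was chosen after seeing the data. The files name no genome build, so genes have no coordinates other than those of the RefSeq promoters.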

Additional observations from a re-analysis of the deposited data

Results flagged for a closer look

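In each group of 4 arrays, the highest or lowest log2 signal of a member, after the floor, was examined. Its gap to its neighbour over the range was set against Dixon's 95% critical value. Of 62 such groups, 12 passed. The members were read on the same arrays and moved together, so the 62 are not independent. Their count cannot be set against the 1 in 20 of a single test. In 7 of the 12, outside-lesion replicate 2 was the lowest array. Its signals were 46.3 for Slc27a2 (others from 1516 to 1984.2), 3051.3 for Acadvl (others from 11139 to 12707), 2379 for Acaa2 (others from 13064 to 13820), 1566.5 for Eci2 (others from 2386.1 to 2461.8), 3509.5 for Etfa (others from 8960.5 to 10187), 992.4 for Pdk4 (others from 7560.6 to 8130.4) and 747.9 for Coq8a (others from 5924.1 to 8323.3). For Slc27a1 the same array was the highest, at 2574.5 (others from 784.6 to 942.6).

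ATLO replicate 2 was the lowest of its group for Acadvl at 1122.3 (others from 1719.4 to 1868.5), Acadm at 2069.2 (others from 3343.7 to 3601.6) and Acaa2 at 754.9 (others from 1309.2 to 1430.1). For Slc27a2, ATLO replicate 4 was flagged at 39.7, but the other 3 arrays were under the floor of 35.1 and were set to it. The gap therefore equalled the range, and this flag comes from the floor. In ATLO against outside-lesion, 28 members were called lower without outside-lesion replicate 2 and 28 without ATLO replicate 2.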

How the results depend on the processing

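In ATLO against outside-lesion, 27 to 29 members were called lower in every setting run and 28 in every fit without 1 array. The 1 member called higher (Cpt1a) became 0 with equal array medians and with the actin ratio as a covariate. In ATLO against wild type, 22 to 28 were lower over the settings that kept all arrays and 19 to 28 without 1 array, and 1 was higher with the mean of all tested probe sets of a gene. In outside-lesion against wild type, the 1 lower call became 0 with equal array medians, only the groups compared, the replicate block, the mean of probe sets and the actin covariate. The 2 higher calls there became 4 with equal array medians, 10 with array weights, 1 with the mean of probe sets, 1 with the actin covariate and 0 without _x_at probe sets. Without 1 array they ranged from 0 to 16 higher and from 0 to 1 lower. Cpt1a reversed with the mean of its probe sets, to 0.74 in ATLO against wild type (adjusted p = 0.0232) and to 0.13 in outside-lesion against wild type; its probe sets differ in sign, as given above. The cause of the other moves was not tested.

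Equal array medians shifted the median of all probe sets by -0.12 in ATLO against outside-lesion and by 0.17 in outside-lesion against wild type. Of 744 member values per comparison, 737, 702 and 678 kept direction and call in the order of the comparisons above, and in the last of these another 20 changed sign without being called in either fit. Same-numbered arrays of different groups correlated over 0.1 in 5 of 10 pairs (median correlation 0.098) and other arrays in 5 of 30 (median -0.036). Same-numbered arrays thus tended to deviate together somewhat more than others. The main fit used no block because no label names pairs, and whether same-numbered arrays share an origin was not tested. The replicate block gave 28, 28 and 0 members lower and 1, 0 and 2 higher. Signals near the floor (Slc27a2, Ppara and Ucp1 in ATLO, Pdk3 outside the lesion) limit the size of those changes.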
